A study of Cavia porcellus with 27 samples.

Results

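The stretch described here lies on scaffold_4 of the guinea pig genome, from position 43658097 to 43745840, and spans 87.7 kb. Its members are the 291 CpG positions inside those limits that the authors listed as differing between treatments in newborn animals, out of 4622 listed positions in all, which is 6.30% of the list and 21.1% of the 1379 positions listed on the scaffold. The study read DNA methylation in prefrontal cortex of female guinea pig offspring with reduced representation bisulfite sequencing (RRBS). On gestational day 50/51 their mothers were given saline or betamethasone, a synthetic glucocorticoid used when preterm birth threatens because it matures the lung of the fetus. The newborn comparison, taken on postnatal day (PND) 1, had 7 saline and 7 betamethasone animals, and an older cohort of PND14 had 7 and 6. Every group was female offspring of a treated or saline-injected mother, with any sharing of litters not given in the sources used here.

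For each position the deposited table holds 1 coverage and 1 methylated read count for either treatment. They were taken to be totals of that treatment's animals, an assumption that no label or header backs, so the spread over animals is unknown for every value below. The table names its sides case and control. Saline is the control in the series record, so case was taken as betamethasone, and all directions below depend on this. A level is the methylated share of the summed reads in percent, and a difference is betamethasone minus saline in percentage points. Except where strands are paired or joined, counts of CpGs are counts of listed positions. A CpG listed on both strands then counts once for each. The members were chosen by being listed, by position and as a highly methylated stretch. Their levels and differences are therefore descriptions and carry no test. The bulk tissue mixes neurons and glia, so that a different mix of cells and a different level within cells cannot be told apart. No gene, exon or promoter is assigned, since coordinates of the files' build could not be matched to an annotation.

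In mammalian DNA, methyl groups are placed on the cytosine of CpG dinucleotides on both strands, and a maintenance enzyme copies the pattern to the new strand after replication. Most CpGs of the genome carry the mark, while dense CpG islands at promoters are usually free of it, and regulatory elements in use often lie in between. RRBS cuts DNA with a restriction enzyme and reads short fragments next to the cut sites, so it samples a stretch in separate patches. After bisulfite treatment an unmethylated cytosine is sequenced as T, whereas a methylated one stays C.

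The members were highly methylated after either treatment. The median level was 88.9% after betamethasone (middle 50% of CpGs from 77.6% to 94.4%) and 89.6% after saline (76.6% to 94.3%). Levels ran from 21.3% to 100% after betamethasone and from 22.4% to 100% after saline. Of the 291 CpGs, 134 had a mean level over the treatments above 90%, 70 lay between 80% and 90%, 75 between 50% and 80%, and 12 between 20% and 50%. None was below 20%, the range of unmethylated CpG islands, whereas 1052 positions of the whole list were. Levels of the treatments followed each other across the 291 CpGs (Pearson's r = 0.92, a description across CpGs that share animals and often reads). Coverage per member ran from 11 to 294 summed reads after betamethasone (median 104) and from 10 to 280 after saline (median 100). At 17 members at least 1 treatment had fewer than 20 reads.

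**Figure D1:**
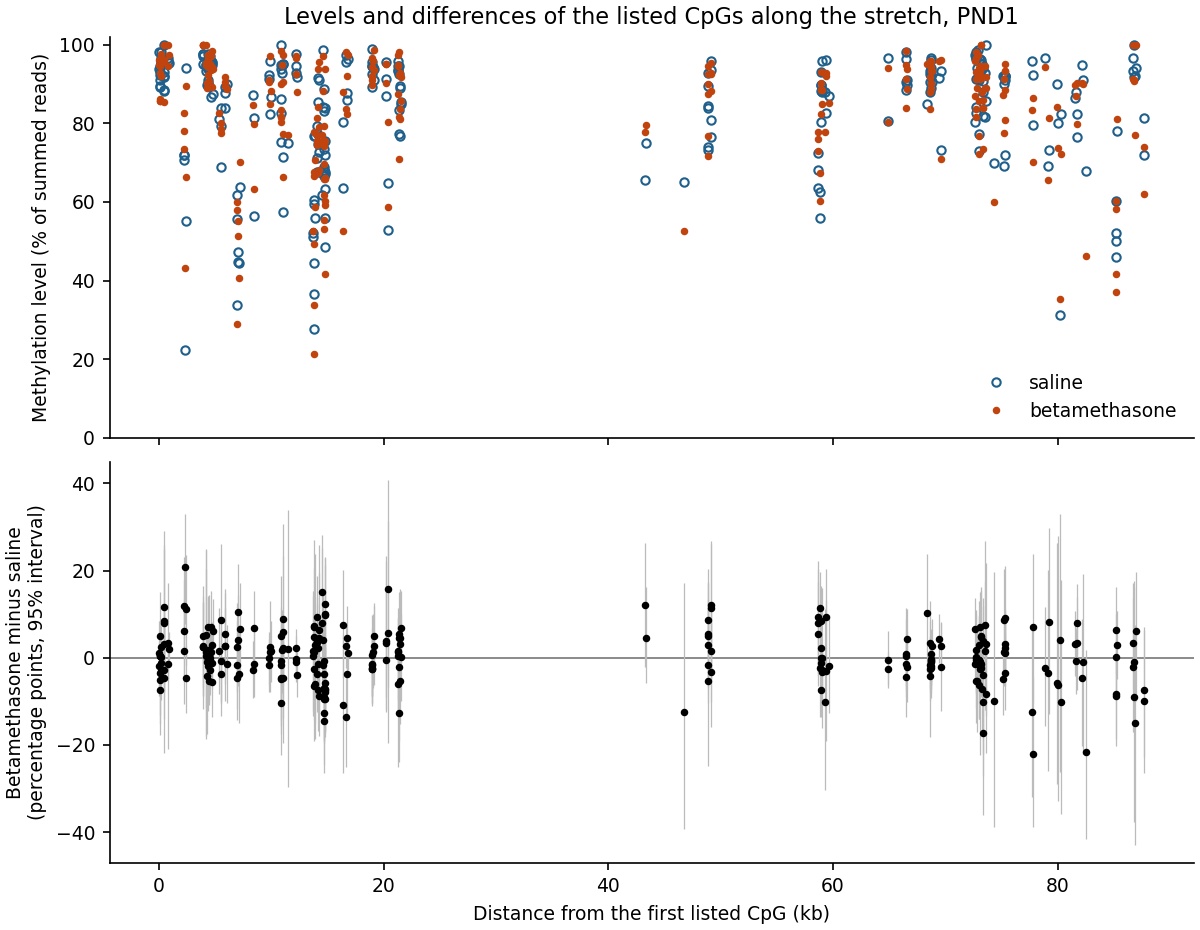
Levels (upper panel, percent of summed reads, saline as open and betamethasone as filled circles) and differences with 95% Newcombe intervals from read counts (lower panel, percentage points) of the 291 CpGs, against the distance from the first CpG in kb. Levels crowd between 80% and 100% with a few dips, and the differences scatter on either side of 0 between -22.0 and 20.7 points.

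The CpGs fell into patches, as RRBS fragments do. Joining CpGs less than 1000 bp apart gave 22 clusters that cover 21.9% of the stretch, and the 9 clusters with at least 10 CpGs held 225 of the members. The widest gap between clusters, 21.7 kb, splits the stretch into 166 CpGs on its left and 125 on its right. Over the clusters the mean level ran from 56.5% to 94.1%, and 15 of the 22 averaged above 80%.

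Nearly full methylation marked the first 872 bp and some clusters further on. The first cluster, at 43658097 to 43658968, had 21 CpGs with means of 94.4% after betamethasone (SD over CpGs 4.88) and 93.7% after saline (SD 3.31), and none of its CpGs averaged below 80%. The 9 CpGs at 43677035 to 43677230 were as uniform, at 93.7% (SD 2.89) and 93.8% (SD 2.78). On the right, 6 CpGs at 43724615 to 43724684 averaged 91.9% and 92.3%, and 16 CpGs at 43726477 to 43727730 averaged 91.1% and 90.7%. The 41 CpGs at 43730748 to 43733448 averaged 88.8% after betamethasone and 89.4% after saline. Small SDs over CpGs describe how alike the CpGs of a cluster were, not how precisely the animals were measured.

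Levels dropped at some patches, and they dropped in both treatments. Close to the left end, the 6 CpGs at 43660321 to 43660515 averaged 72.1% after betamethasone and 64.3% after saline. The largest cluster, 42 CpGs at 43661983 to 43665301, held a step. Its first 35 CpGs, up to 43664189, averaged 92.9% after betamethasone and 91.7% after saline. Past a gap of 817 bp its last 7 CpGs, at 43665006 to 43665301, averaged 52.0% and 50.2%. Within those 7 the CpG at 43665072 had 28.9% of 159 reads after betamethasone and 33.7% of 193 after saline, and the one at 43665187 had 40.6% of 143 and 44.4% of 151.

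The broadest dip was the cluster of 39 CpGs at 43671819 to 43672912, with means of 68.5% (SD 16.3) and 69.0% (SD 15.1). It held 32 of the 87 members with a mean level not above 80%. The CpG with the lowest mean over both treatments in the whole stretch was in it, at 43671889, with 21.3% of 94 reads after betamethasone (Wilson 95% interval 14.2% to 30.6%) and 27.7% of 83 after saline (19.2% to 38.2%). Its neighbour at 43671890, the position on the other strand, had 33.9% of 177 reads and 36.6% of 186. In the same cluster 43671909 stood at 49.2% and 44.5%, and 43672843 at 41.6% and 48.6%. By contrast 43672686, inside the same dip, was at 97.1% and 98.8%, so single CpGs of the dip were nearly fully methylated.

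At the right end the lowest cluster mean belonged to 5 CpGs at 43743302 to 43743393, 55.7% after betamethasone and 57.3% after saline at 120 to 206 reads. One of them, 43743314, had 37.2% of 199 reads and 46.1% of 178. The 7 CpGs at 43736990 to 43738424 averaged 72.4% and 74.7% but rest on 10 to 35 reads each, and the lowest of them, 43738360, had 35.3% of 17 reads and 31.3% of 16. In all, 9 members were below 50% in both treatments, and the 12 whose mean over the treatments was below 50% lay in 5 of the 22 clusters.

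**Figure D2:**
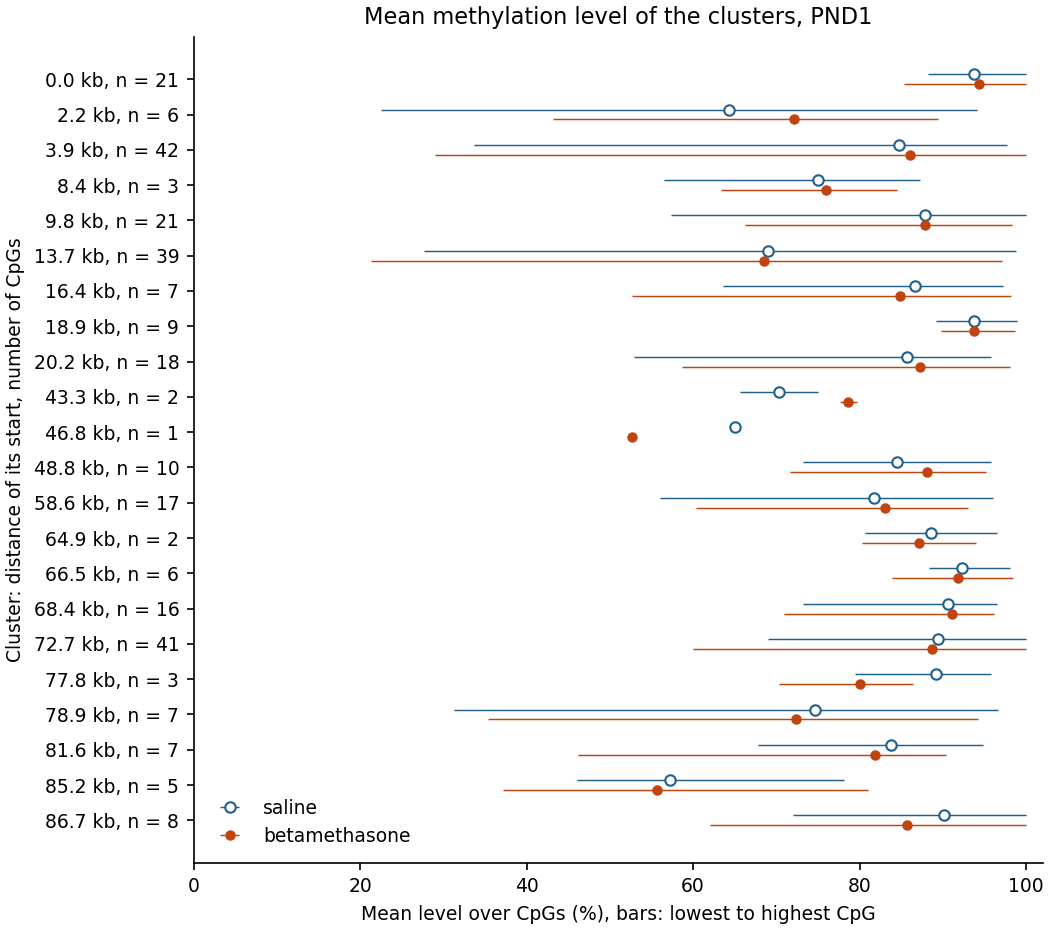
Mean level over the CpGs of each of the 22 clusters (x axis, percent; saline open, betamethasone filled; bars from the lowest to the highest CpG), ordered by position from top to bottom and named by the distance of the cluster's start from the first CpG in kb. The dips at 13.7 kb (68.5% and 69.0%) and 85.2 kb (55.7% and 57.3%) appear in both treatments.

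The stretch differed in its levels from the other listed positions, which follows in part from how it was picked. Just downstream, the longer dense stretch of the same scaffold holds 1042 listed CpGs over 627 kb, with a median level of 83.3% in each treatment and 13.7% of its CpGs below 20%. Among the 3176 positions outside the dense stretches of the list, medians were 75% after betamethasone and 74.7% after saline, and 26.8% were below 20%. In the 88 kb stretch 0% were below 20%, 29.9% lay between 20% and 80% and 70.1% above 80%. The share between 20% and 80% was 31.0% in the longer stretch and 27.8% outside the dense stretches. Within that class, CpGs between 20% and 50% made up 4.12% of the members, 9.31% of the longer stretch and 9.67% outside. CpGs between 50% and 80% made up 25.8%, 21.7% and 18.1%. A dense stretch of 113 listed CpGs on scaffold_3 had 51.3% below 20% and 5.31% between 20% and 80%.

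**Figure D3:**
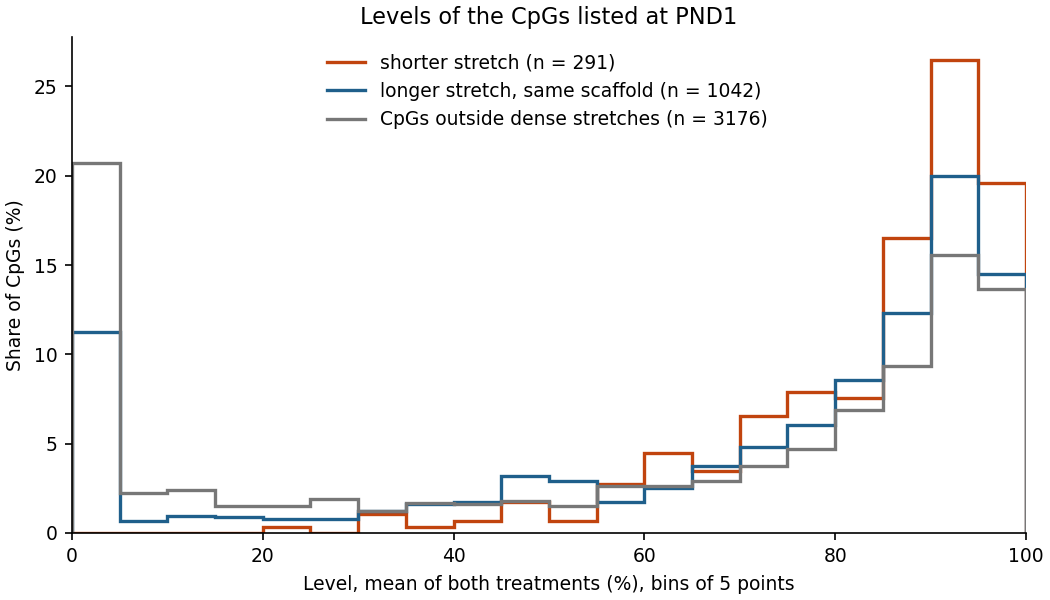
Share of listed CpGs (y axis, percent) by level, the mean of both treatments in bins of 5 points (x axis), for the 88 kb stretch (shorter stretch in the legend, 291 CpGs), the longer stretch of the same scaffold (1042) and the positions outside dense stretches (3176). The peak near 0 of the other sets has no counterpart in the 88 kb stretch.

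The edges of the stretch were set by gaps in the list. The first member, 43658097, had 94.9% of 78 reads after betamethasone and 93.8% of 97 after saline. Before it the nearest listed CpG on the scaffold is 8.14 Mb away, at 35516067 (82.5% and 84.7%). The last member, 43745840, had 62.0% of 50 reads and 72.0% of 75. The next listed CpG lies 220 kb further on, at 43966052 (92.6% of 27 reads and 88.2% of 17), and opens the longer stretch.

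Between treatments the members differed little and in either direction. Of the 291 CpGs, 148 were higher after betamethasone, 142 lower and 1 equal, where 49.9% of the whole list were higher and 49.7% lower. The contrast that chose the list is the same, so nothing is read from these shares. The mean level was 83.8% after betamethasone (SD over CpGs 14.8) and 83.6% after saline (SD 14.8), and the mean difference was 0.19 points (SD over CpGs 6.07). The median size of a difference was 3.49 points, where the counting error (SE from the summed reads alone) had a median of 4.86 points.

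The differences were about as large as the counting error of the reads. Their root mean square divided by that of the counting error was 1.01 for the members, 1.11 for the longer stretch of the scaffold and 1.32 for positions outside the dense stretches. A value of 1 is what reads drawn independently at equal levels would give. At 17 members (5.84%) the Newcombe 95% interval of the difference left out 0, against 7.96% of the whole list. The counting error treats reads as independent molecules and leaves out variation between animals, and no test compared these values between stretches.

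Larger differences sat where reads were few or levels intermediate. In all, 31 members (10.7%) differed by at least 10 points, 14 of them higher and 17 lower after betamethasone, against 13.7% of the whole list. At 80 members with fewer than 50 reads in a treatment the median size was 4.55 points and 15 reached 10 points. At 137 members with at least 100 reads in both treatments the median was 2.80 points and 8 reached 10 points. The 134 CpGs above 90% had a median size of 2.29 points, and 2 of them reached 10 points, while among the 87 not above 80% it was 6.43 points and 19 did. A proportion near 100% has less counting error than one near 50%: the median error was 3.71 points in the former class and 5.89 in the latter.

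The largest gain among members with at least 20 reads was at 43660450, with 43.2% of 95 reads after betamethasone (Wilson 95% interval 33.7% to 53.2%) and 22.4% of 107 after saline (15.6% to 31.2%). These intervals do not overlap, and the difference was 20.7 points (Newcombe 95% interval 7.79 to 32.9). This CpG lies in a cluster of 6 at 43660321 to 43660515, of which 5 were higher after betamethasone. The cluster averaged 72.1% and 64.3%, which is 7.84 points apart (SD over CpGs 8.87) at 95 to 118 reads each. In the same cluster 43660358 had 82.5% and 70.6%, and 43660484, the single CpG that was lower, had 89.4% and 94.1%.

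Further gains were smaller or less precise. At 43672657 the level was 76.9% of 104 reads after betamethasone and 61.7% of 81 after saline, a difference of 15.2 points (1.89 to 28.2). At 43672862 it was 75.6% of 131 reads and 63.2% of 136, 12.3 points apart (1.27 to 23.0). Its neighbour 43672863, taken as the position on the other strand, went the other way, with 59.3% and 67.0%. With the reads of both positions summed, the difference was 0.41 points. The intervals of the remaining 2 leading gains included 0. These were 43701365 (77.7% of 94 reads and 65.6% of 64, 12.0 points, interval -2.03 to 26.2) and 43707234 (92.9% of 42 and 80.9% of 47, 12.0 points, interval -2.73 to 26.2).

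The largest loss was at 43735905, where 70.3% of 37 reads after betamethasone and 92.3% of 39 after saline were methylated, a difference of -22.0 points (-38.9 to -4.45). Its neighbour 43735912, 7 bp away on equally many reads, went the other way, with 86.5% and 79.5%. At 43740613 the level was 46.2% of 39 reads and 67.7% of 31 (-21.6 points, -41.6 to 1.72), and at 43731471 it was 73.3% of 30 and 90.6% of 32 (-17.3 points, -36.1 to 2.10), with intervals that include 0. The more deeply read losses were 43672763, with 53.2% of 111 reads and 67.7% of 124 (-14.6 points, -26.5 to -2.09), and 43674749, with 83.6% of 61 reads and 97.3% of 74 (-13.7 points, -25.1 to -3.88). All 10 were picked for their size, which biases them away from 0.

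A two-sided Fisher's exact test of methylated against unmethylated reads, run on every position of the list, gave p under 0.05 at 15 members (5.15%), 8 of them higher and 7 lower, against 6.92% of the whole list (3.94% higher, 2.99% lower). After Benjamini-Hochberg adjustment over the 4622 positions 0 members were under 0.05, against 0.151% of the list, and the smallest adjusted Fisher's exact p of a member was 0.324. By the authors' deposited table, 14 members (4.81%) had a first p-value under 0.05, against 7.88% of the list, and 12 of these 14 were among the 15. Since the same contrast chose the positions, these counts describe the members and nothing is read from them.

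Gains and losses stood side by side within clusters. Of the 21 clusters with at least 2 CpGs, all CpGs had the same direction in 2, and each of those has 2 CpGs. In the cluster at 43716745 to 43717734, the first 6 CpGs averaged 73.9% after betamethasone and 67.2% after saline, with 5 of the 6 higher. They include 43716990 (67.4% of 230 reads and 56.0% of 259) and 43717013 (88.7% of 230 reads and 80.2% of 258). The other 11 CpGs, from 43717063 on, averaged 88% and 89.7%, with 8 lower and 2 higher, among them 43717064 (82.3% of 243 reads and 89.7% of 233). Over its 17 CpGs the cluster differed by 1.29 points (SD over CpGs 6.34). This split was chosen after the values had been seen.

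In the large cluster from 43661983, too, neighbours parted. At 43662460 the level was 97.4% of 116 reads after betamethasone and 90.3% of 113 after saline, a difference of 7.15 points (0.81 to 14.2). At 43662517, 57 bp on, it was 90.6% of 234 reads and 96.0% of 248, a difference of -5.37 points (-10.2 to -0.89). Over the whole cluster 27 of 42 CpGs were higher, by a mean of 1.36 points (SD over CpGs 3.82). On the right side 43706939 had 92.4% of 185 reads and 83.8% of 111 (8.65 points, 1.24 to 17.2), in a cluster of 10 CpGs with means of 88.2% and 84.5%.

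In the broad dip both directions occurred as well. In its last 150 bp, from 43672763 to 43672912, 12 of 15 CpGs were lower after betamethasone and 3 higher, with means of 65.9% and 70.0%. At 4 places a pair of positions 1 bp apart was listed, taken here as the cytosines of one CpG on opposite strands. At the first position of those pairs 3 of 4 were higher after betamethasone, with differences from -0.76 to 12.3 points. At the second position all 4 were lower, with differences from -7.74 to -5.80 points. With the unpaired positions, whose strand the table does not give, 11 CpGs outside the first positions were lower, at a mean difference of -8.54 points (range -14.6 to -3.74). Those 11 had 110 to 112 reads after betamethasone at 6 positions and 190 to 198 at 5, and positions of like coverage can rest on the same reads, so they are not independent readings. The window was picked after its values had been seen.

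The 291 members include 41 pairs of positions 1 bp apart, or the strands of 41 CpGs. The median gap in level within a pair was 3.74 points, against 2.36 points in 595 such pairs elsewhere in the list. The pairs were not matched for level: 24.3% of the positions elsewhere were below 20%, against 0% of the members. Gaps exceeded 10 points in 5 member pairs (12.2%) and in 79 pairs elsewhere (13.3%). The largest among the members, 19.8 points, was between 43672894 (93.8% of 32 reads after betamethasone, 84.0% of 50 after saline) and 43672895 (66.2% of 198 and 72.0% of 189). Across the 41 pairs Pearson's r of the levels was 0.92. The Wilson intervals of the strands stood apart at 5 pairs after betamethasone and at 0 after saline, against 57 and 44 of the 595 pairs elsewhere.

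The treatment differences of the strands did not follow each other. Of the 40 pairs in which both positions had a direction, 12 (30%) had the same one, against 306 of 592 pairs (51.7%) elsewhere in the list. The other 28 had opposite ones, with the first position higher after betamethasone in 17 and the second in 11. Pearson's r between the differences of the strands was -0.20 across the 41 pairs and 0.03 across 595 pairs elsewhere, as descriptions across CpGs that share animals and neighbouring fragments. At 43672842 and 43672843, for example, the levels were 65.9% of 132 reads after betamethasone and 55.8% of 138 after saline on one strand, but 41.6% of 190 and 48.6% of 183 on the other. At 43672862 and 43672863 they were 75.6% and 63.2%, and 59.3% and 67.0%. With the reads of both strands summed, the differences were -0.16 points for the former pair and 0.41 points for the latter. The strands are read from separate DNA molecules after bisulfite treatment, so their counting errors are separate.

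**Figure D4:**
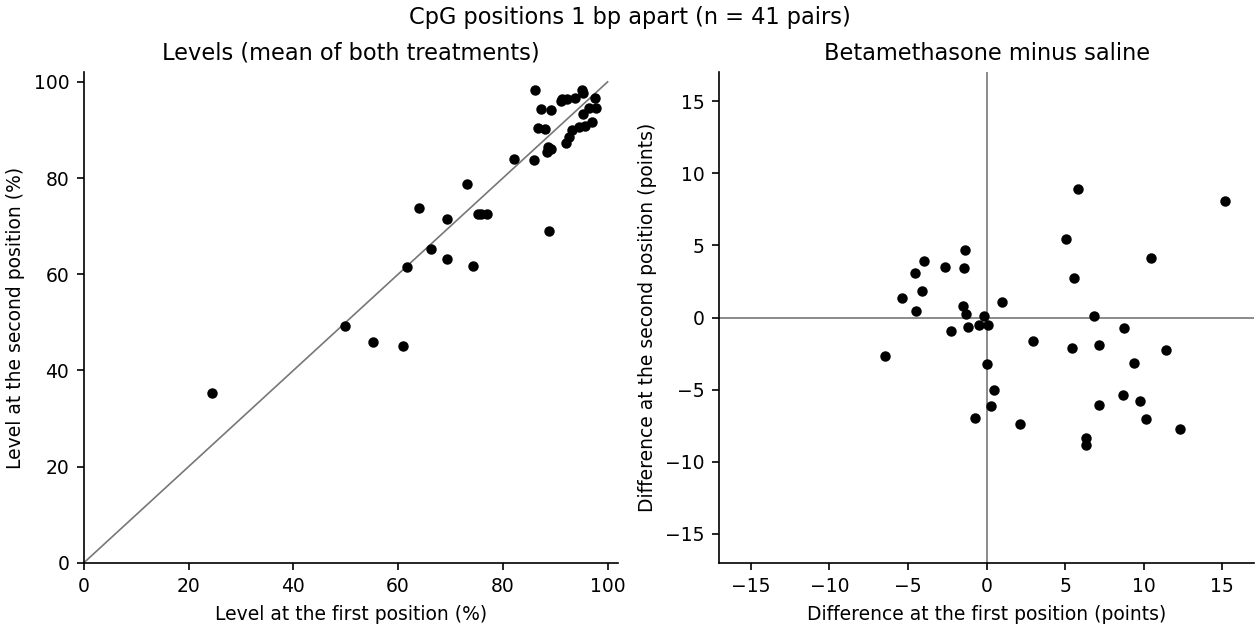
The 41 pairs of members 1 bp apart. The left panel sets the level at the second position against that at the first (percent, mean of both treatments, with the line of equality), and the right panel does so for the difference between treatments (percentage points): levels follow the line, while 28 pairs lie in the quadrants of opposite direction.

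Adjacent CpGs were more alike in level the closer they lay. The median gap in level between adjacent members was 4.48 points for 86 pairs 2 to 20 bp apart, 5.56 points for 104 pairs 21 to 100 bp apart and 9.93 points for 38 pairs over 100 and under 1000 bp apart. Between clusters, over 21 gaps of 1000 bp or more, it was 10.8 points. Of the 86 closest pairs 24 had identical coverage in both treatments, as CpGs on the same reads have. Adjacent members 2 to 20 bp apart shared the direction of their difference in 47 of 85 pairs (55.3%), and those 21 to 100 bp apart in 48 of 104 (46.2%). Elsewhere in the list these shares were 57.1% (869 of 1521 pairs) and 56.5% (550 of 974), and no test compared them.

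On the left of the 21.7 kb gap 95 of 166 CpGs (57.2%) were higher after betamethasone, and on its right 53 of 125 (42.4%). The mean differences were 0.71 and -0.51 points, with SDs over CpGs of 5.76 and 6.42. By cluster, 5 of 9 on the left and 4 of 13 on the right had a positive mean difference. On the left the medians were 89.3% after betamethasone and 89.1% after saline, on the right 88.9% and 90%. The gap was chosen as the widest one, not by the values, and no test was made of this difference.

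The authors' adjusted p-values did not order the CpGs as their first p-values did. By the authors' deposited table, 163 members (56.0%) have an FDR given as 0, against 30.1% of the list. That share was higher in the other dense stretches, 82.7% in the longer stretch of the scaffold and 97.3% on scaffold_3. Outside the dense stretches it was 8.12%. The largest FDR of a member in the authors' deposited table is 0.0484, where all listed values are under 0.05. The members with an FDR of 0 had a median first p-value of 0.523, and 84 of them had one above 0.5. The other 128 members had a median first p-value of 0.399. The whole list showed the same order, with median first p-values of 0.430 at an FDR of 0 and 0.356 above 0 in the authors' deposited table. Of its 1393 positions with an FDR of 0, 613 had a first p-value above 0.5. In size the differences of the members in these classes were alike, with medians of 3.45 and 3.53 points. At the CpG with the smallest first p-value, 43660450 (0.00192 in the authors' deposited table), the FDR is 0.00132, which is larger than at most members.

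Along the stretch the FDR was alike in runs of CpGs. Every CpG of 5 clusters had an FDR of 0 and no CpG of 10 clusters did. In the authors' deposited table it reached 0.0183 in the last cluster before the gap, and it lay between 0.0448 and 0.0467 at the 6 CpGs of 43724615 to 43724684. It was 0 at 39 of the 41 CpGs of 43730748 to 43733448, of which 17 were higher and 24 lower. A single CpG that stands 3379 bp and 2071 bp from its neighbours, 43704868, had 52.6% of 19 reads after betamethasone and 65% of 20 after saline, a first p-value of 0.749 and an FDR of 1e-05 in the authors' deposited table. The way the second p-value and the FDR were formed was not given in the sources used here.

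**Figure D5:**
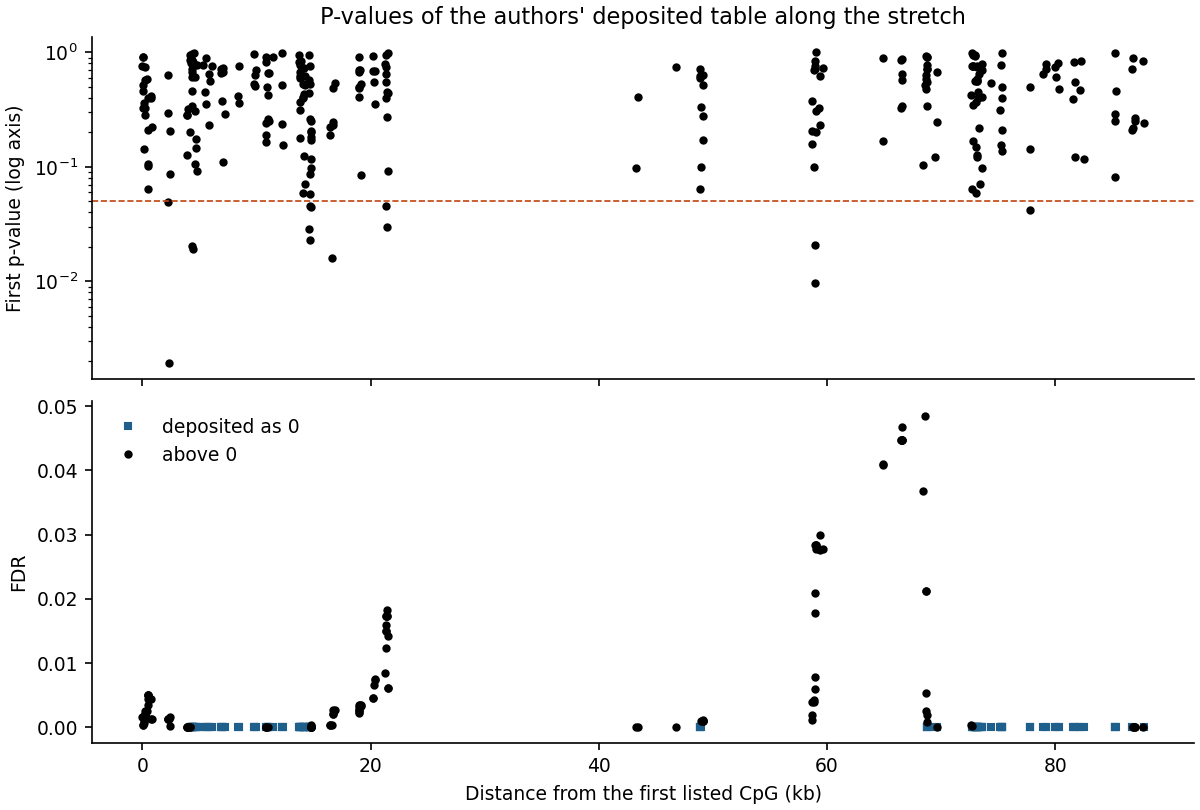
First p-value (upper panel, log axis, dashed line at 0.05) and FDR (lower panel, squares for values deposited as 0) of the 291 members in the authors' deposited table, against the distance from the first CpG in kb. First p-values run from 0.00192 to 1, with 14 under 0.05, while FDR values are alike in runs of CpGs.

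In the older cohort the stretch held no listed position. The table of PND14 lists 2005 CpGs, of which 0 lie in the stretch and 5 on the scaffold, the nearest 21.6 Mb away at 22081907 (1.12% of 89 reads after betamethasone and 1.02% of 98 after saline). Across all 4622 positions of the newborn list, 0% are listed at PND14. A position that is not listed may have been read and not called or not read at all, and the levels of the stretch at PND14 were not analysed here. Nothing about a difference between the ages was tested.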

How the data were processed

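Per the labels' protocols, 27 RRBS libraries were prepared, 1 for each animal, with Ovation reagents and EpiTect bisulfite conversion from 100 ng of input. The submitters' processing notes name Bismark 0.16.0, SAMtools 1.9, Bowtie2 2.3.4.3 and Trim Galore. Genome build, caller and filters were not given in the sources used here. Per the file headers, the authors deposited read counts (coverage and methylated reads per treatment), the methylated fraction of case and control, and for each CpG 2 p-values and an FDR. Methylated reads over coverage, both as deposited, equal those fractions within rounding. The PND14 table also holds a deposited difference in percentage points, which was not used. All CpGs in the tables have 10 or more reads per treatment and an FDR under 0.05.

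Levels and differences were recomputed from the counts. Wilson and Newcombe 95% intervals cover counting error only, since the counts hold no value per animal. They treat reads as independent molecules, which PCR copies are not, so they can be too narrow. The counting SE added 0.5 reads to each class. Fisher's exact test was run on all 4622 rows with Benjamini-Hochberg adjustment and was checked on simulated data. Reads were drawn there independently, without variation between animals, so the check covers the calculation and not these limits of the real reads. The members and all lists were chosen with earlier results of these data known. The rule for named items took the 10 clusters with most CpGs, the 5 lowest and 5 highest clusters of at least 2 CpGs, the 5 largest gains and 5 largest losses with at least 20 reads per treatment, up to 10 members with Fisher's exact p under 0.05, those below 50% in both treatments, and the ends. Other CpGs named, such as neighbours and strand partners, were chosen after their values were seen. Positions are printed as deposited, since whether they count from 0 or 1 is not given. SciPy 1.17.1, pandas 2.3.3 and NumPy 2.4.6 under Python 3.11.15 did the calculations, and Matplotlib 3.10.9 the plots.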

Additional observations from a re-analysis of the deposited data

How the results depend on the processing

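No paired analysis was possible because each table gives 1 value per treatment and none per animal, and leaving out single animals could not be run for the same reason. The median level was 89.3% after betamethasone with at least 20 reads in both treatments. With at least 50 reads it was 88.2% after betamethasone and 88.4% after saline, and without the cluster of most CpGs 88.2% and 89.0%. Summed reads over summed coverage gave 82.7% and 82.4%. The mean difference was -0.0098 points without the largest cluster, against 0.19, and 16 of the 211 members with at least 50 reads differed by 10 points or more, against 31 of 291. A gap of 100 bp gave 61 clusters and one of 10000 bp gave 2, against 22. The sign of the mean difference turned in 4 clusters under a higher coverage minimum: from 43658097 (-0.76 points at 50 reads), 43726477 (-0.17), 43730748 (0.054) and 43736990 (0.73 at 20 reads). Summed with the strand partner, the difference was 0.41 points at 43672862 (against 12.3), -0.16 at 43672843 (-7.05), 6.43 at 43716990 (11.4), 4.62 at 43662460 (7.15) and -4.31 at 43671890 (-2.66). The cause was not tested. Among these strand sums only that at 43672862 was classed as changed. Those at 43672843, 43716990, 43662460 and 43671890 lay within the wide counting interval of the single position. Counting them, 49 of 54 values of named clusters and CpGs were classed as unchanged, as were 27 of 38 summary values. For levels and differences this meant staying within their spread or counting interval, which at single CpGs is wide. For counts it meant a limited ratio to the main count, with no interval. Several settings kept only part of the members, so little is read from the stability of counts. Joining positions 1 bp apart left 250 CpGs, 10 of them with Fisher's exact p under 0.05. The share over the whole list after such joining was not counted, so nothing is read from the 10. Depth limits single CpGs, whose differences carry a counting error of 4.86 points at the median.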
